A study of Homo sapiens with 12 samples.

Results

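FAM153A, FAM153B, FAM153C, AACSP1 and AC138819.1 are 5 genes of a duplicated region at 5q35, near the end of the long arm of chromosome 5, and they make up 5 of the 58735 genes in the count tables. They were chosen by name from that region with their knockout against wild-type values in both kits already known, so those values are given as a description with no test. FAM153A, FAM153B and FAM153C are near-identical copies of one another, AC138819.1 is an antisense RNA gene that runs across the end of FAM153A, and AACSP1 is a pseudogene copied from AACS.

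RNA was sequenced from the near-haploid human line HAP1, which descends from a chronic myelogenous leukemia, and from a SETDB1 knockout derivative of it. The comparison addressed how gene expression differs once SETDB1 is lost. Each genotype had 3 libraries from a non-directional kit, in which the strand of origin is lost, and 3 from a directional kit, in which it is kept, giving 4 groups and 12 libraries. Wild-type and knockout cells were grown in the same medium (IMDM with serum and antibiotics), and the sources used here do not say whether the knockout line came from 1 clone or how the gene was disrupted.

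SETDB1 encodes a histone methyltransferase that places methyl groups on lysine 9 of histone H3, a mark of silenced chromatin, and is best known for silencing retrotransposons and some genes. The FAM153 genes arose by segmental duplication, in which long blocks of DNA are copied almost without change, so a short read from one copy often aligns equally well to another. AACS encodes acetoacetyl-CoA synthetase, the cytosolic enzyme that turns acetoacetate into acetoacetyl-CoA for lipid synthesis. RefSeq lists FAM153A as protein coding and FAM153B, FAM153C (under the symbol FAM153CP) and AACSP1 as transcribed pseudogenes, whereas GENCODE 29 calls all of FAM153A, FAM153B and FAM153C protein coding.

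On GRCh38 the members lay in this order along chromosome 5. FAM153B (ENSG00000182230) lay on the plus strand at chr5:176060689-176116015, with 5332 exonic bases, of which 1441 were shared on the same strand with AC139491.7. AC138819.1 (ENSG00000249849) followed after a long interval on the plus strand at chr5:177682294-177713969, with only 431 exonic bases. FAM153A (ENSG00000170074) lay on the minus strand at chr5:177707981-177783398 with 8528 exonic bases, and 120 of these were also exonic in AC138819.1, which is 27.8% of the exonic bases of AC138819.1 and 1.41% of those of FAM153A. FAM153C (ENSG00000204677) lay on the plus strand at chr5:178006405-178055559, 223 kb beyond FAM153A, with 4285 exonic bases. AACSP1 (ENSG00000250420) lay on the minus strand at chr5:178764861-178818435, 709 kb beyond FAM153C, with 3380 exonic bases, and neither FAM153C nor AACSP1 shared exonic bases with another annotated gene.

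The sequences show why reads of the FAM153 genes are hard to assign. A coding exon of 80 bases was the same, base for base, in FAM153A (chr5:177744888-177744967, minus strand), FAM153B (chr5:176093195-176093274, plus strand) and FAM153C (chr5:178038838-178038917, plus strand), and coding exons of 38 and 68 bases were also identical in all of them.
Identical exon of FAM153A, FAM153B and FAM153C: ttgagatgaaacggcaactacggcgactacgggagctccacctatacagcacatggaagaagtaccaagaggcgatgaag
A coding exon of 144 bases differed from FAM153A by 1 base in FAM153B and by 2 bases in FAM153C, which capitals mark. The capital G stands in both FAM153B and FAM153C, so a read over it alone could be told from FAM153A only. The capital A stands in FAM153C alone.
FAM153A, chr5:177750909-177751052, minus strand: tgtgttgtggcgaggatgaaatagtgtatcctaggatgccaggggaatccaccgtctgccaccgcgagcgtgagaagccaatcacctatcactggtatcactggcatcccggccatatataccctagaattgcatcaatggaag
FAM153B, chr5:176087112-176087255, plus strand: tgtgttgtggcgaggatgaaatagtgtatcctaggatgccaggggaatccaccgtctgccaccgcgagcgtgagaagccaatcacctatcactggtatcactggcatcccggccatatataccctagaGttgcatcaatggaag
FAM153C, chr5:178032743-178032886, plus strand: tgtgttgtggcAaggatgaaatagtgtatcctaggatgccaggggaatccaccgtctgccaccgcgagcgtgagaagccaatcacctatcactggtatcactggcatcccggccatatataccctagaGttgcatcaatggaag

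Over whole transcripts, the longest coding transcript of FAM153B aligned to that of FAM153A over all 1966 bases with 1956 identical (99.5%). The longest stretch that aligned between FAM153C and FAM153A covered 630 bases with 625 identical (99.2%), and 626 of 630 bases were identical between FAM153C and FAM153B. AC138819.1 is shown by its middle exon, which lies just beyond the end of FAM153A and so outside the shared bases.
AC138819.1, chr5:177706706-177706885, plus strand: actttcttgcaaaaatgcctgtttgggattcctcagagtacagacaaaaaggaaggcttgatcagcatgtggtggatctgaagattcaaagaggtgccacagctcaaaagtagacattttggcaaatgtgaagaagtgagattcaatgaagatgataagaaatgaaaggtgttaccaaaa
AACSP1 has drifted further from its parent. Its longest transcript aligned to AACS in 3 stretches, the longest with 294 of 332 bases identical (88.6%), and a matching exon of 81 bases carried 6 changes (capitals).
AACS, chr12:125114477-125114557, plus strand: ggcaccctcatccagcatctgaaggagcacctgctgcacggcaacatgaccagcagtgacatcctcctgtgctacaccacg
AACSP1, chr5:178797531-178797611, minus strand: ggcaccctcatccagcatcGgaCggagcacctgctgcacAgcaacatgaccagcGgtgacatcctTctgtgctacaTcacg

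Cutting the annotated transcripts into every stretch of a fixed length gave the share also found, on either strand, in a transcript of another gene. This share takes in genes annotated over the same bases as well as copies, so it is not the share of reads that align to several places. At 50 bases, FAM153A, which overlaps AC138819.1, held 18.8% of its stretches. AC139491.7, which overlaps FAM153B, held 24.3% of those of FAM153B. For stretches of 50 bases, 77.8% of FAM153B, 72.3% of FAM153C and 63.9% of FAM153A also occurred in transcripts of another gene. For stretches of 100 bases the shares were 69.1%, 57.9% and 47.2%, and FAM153A and FAM153B had 3159 such stretches in common, 32.9% of those of FAM153A and 54.5% of those of FAM153B. AC138819.1 stood lower, at 42.9% for 50 bases and 14.2% for 100 bases. AACSP1 was almost free of shared stretches: 5 of its 3427 stretches of 50 bases (0.146%) occurred in AACS and none of 100 bases did.

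**Figure D1:**
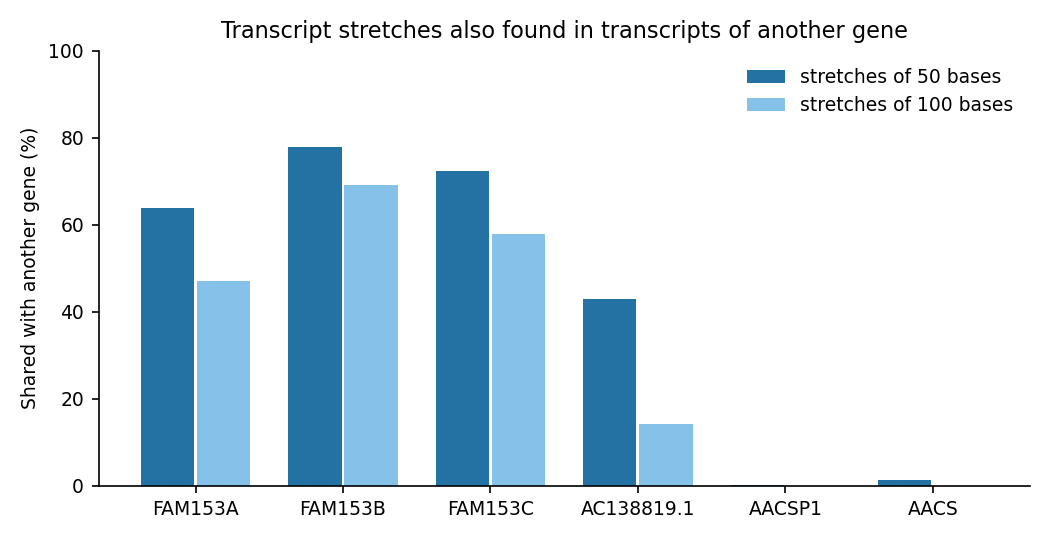
Share of the annotated transcript stretches of each gene (vertical axis, percent, from 0 to 100) that also occur in a transcript of another gene, for stretches of 50 bases (dark bars) and 100 bases (light bars), for the 5 members and AACS. The FAM153 genes are high, from 63.9% to 77.8% at 50 bases, AC138819.1 is between, and AACSP1 is near 0.

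The total of gene counts per library was 8921959 to 10199215 with the non-directional kit and 532021 to 676691 with the directional kit, although both kits listed similar numbers of reads (11096966 to 12684855 against 10106592 to 12842195). In the directional tables only 5.23 to 5.30% of listed reads fell in a gene, against 80.3 to 80.4% in the non-directional tables. A count of 3, taken as the smallest abundance the gene counts can show, corresponded to 0.294 to 0.336 counts per 1000000 gene counts (CPM) with the first kit and 4.43 to 5.64 CPM with the second. SETDB1 itself was at 60.0 ± 4.36 CPM in wild-type and 11.5 ± 0.637 CPM in knockout non-directional libraries (SD, n = 3), or -2.39 on the log2 scale (SE 0.079, adjusted p = 7.0e-43 by the quasi-likelihood test of edgeR). In the directional libraries its counts were 7 to 17 in wild type and 4 to 11 in knockout, and the ranges overlapped. The log2 fold change of -0.71 did not pass the test (edgeR adjusted p = 0.256). Wild-type non-directional libraries had 519 to 651 counts of SETDB1, so the low directional counts give little check of the knockout. The 3 non-directional knockout libraries differed from each other by less than sampling noise (chi-square per degree of freedom of 0.956 to 0.991 for their pairs). Of 12 blood cell markers, KIT alone averaged above 1 CPM in the non-directional libraries. SPI1, MPO, LYZ and CD33 had 0 counts in both genotypes, and the summed level of the list was 18.7 to 19.5 CPM in wild type and 16.5 to 17.8 CPM in knockout. The leukemic origin of HAP1 was thus not visible in these myeloid markers. Of 6 neural markers MAP2 and SYT1 averaged above 1 CPM, with the list at 6.50 to 9.02 CPM in wild type and 5.91 to 6.65 CPM in knockout. Of 5 germ cell markers DAZL alone did, TNP1 and PRM1 had 0 counts, and the list was at 8.41 to 10.3 CPM in wild type and 1.43 to 2.56 CPM in knockout, whose part in the results was not tested.

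In the non-directional libraries 3 members, FAM153A, AC138819.1 and AACSP1, had higher levels in knockout than in wild type, and the wild-type levels of FAM153A and AC138819.1 were close to the floor. FAM153A, which encodes a protein of unknown function, had counts of 3, 4 and 2 in the wild-type libraries and 76, 75 and 71 in the knockout libraries. The genotypes did not overlap, and the wild-type values lay about the floor of 3 counts. Its mean level was 0.318 ± 0.120 CPM in wild type and 7.47 ± 0.423 CPM in knockout (SD, n = 3), a ratio of 23.5 and a fitted log2 fold change of 4.50 (SE 0.29). In bulk RNA such a difference cannot be told apart between more cells that express the gene and more RNA per cell.

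AC138819.1, the antisense RNA gene, had counts of 9, 2 and 4 in wild type and 132, 115 and 118 in knockout. Every knockout library was far above every wild-type library, and wild-type replicate 1 held the most wild-type counts. The mean was 0.511 ± 0.337 CPM in wild type and 12.3 ± 1.06 CPM in knockout (SD, n = 3), a ratio of 24.1 and a log2 fold change of 4.50 (SE 0.24). The fold change was 5.16 without wild-type replicate 1.

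AACSP1, the pseudogene, was the only member with a wild-type level well above the floor. Its counts were 18, 15 and 19 in wild type and 175, 198 and 197 in knockout, with no overlap. The mean was 1.82 ± 0.178 CPM in wild type and 19.2 ± 1.16 CPM in knockout (SD, n = 3), a ratio of 10.5 and a log2 fold change of 3.38 (SE 0.16). Among 13778 genes fitted, ordered from the most raised, AC138819.1, FAM153A and AACSP1 stood at places 71, 72 and 104.

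FAM153B and FAM153C were at or under the floor in the same libraries. FAM153B had 0 counts in every wild-type library and 0, 0 and 2 in the knockout libraries, and FAM153C had 0 in wild type and 0, 1 and 0 in knockout. With 0 counts, levels of up to 0.336 CPM could have gone unseen, and no fold is given. Reads that align equally well to several places were not counted in the non-directional tables (6.86 to 7.19% of listed reads were set aside as not unique), so the low counts of FAM153B and FAM153C cannot be told apart from reads lost to their shared sequence. Of the annotated genes that share stretches of 100 bases with FAM153B or FAM153C, AC139491.7 had at most 1 count in a library and AC139491.5 had 0 in all 12 libraries, while FAM153A had the counts given above. AC139491.4, which shares stretches with AC138819.1, also had 0 in all 12 libraries.

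Of the 5 members, 3 passed the filter on low counts in the non-directional libraries and 2 did not. For 3 members every knockout library was above every wild-type library, where 29.1% of the genes tested were so, and since the members were known to be raised nothing is read from that share.

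Compared per length, which is needed between genes, the order of levels changed. In the non-directional knockout libraries AC138819.1 was highest at 28.5 ± 2.46 CPM per kb of exon, AACSP1 followed at 5.67 ± 0.344 and FAM153A was the lowest of the 3 members that passed the filter at 0.876 ± 0.0497 (SD, n = 3), and the ranges of these 3 did not overlap. FAM153B and FAM153C, which did not pass, were at 0.0123 ± 0.0213 and 0.00794 ± 0.0137. In wild type the order of the means was the same, at 1.19 ± 0.783, 0.539 ± 0.0526 and 0.0373 ± 0.0140 CPM per kb of exon. The length was that of all annotated exons together, 8528 bases for FAM153A, whose longest coding transcript has 1966 bases. Reads lost to shared sequence were not corrected for. Of stretches of 50 bases, 63.9% in FAM153A and 0.146% in AACSP1 occur in another gene, so the order holds only for these measures.

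**Figure D2:**
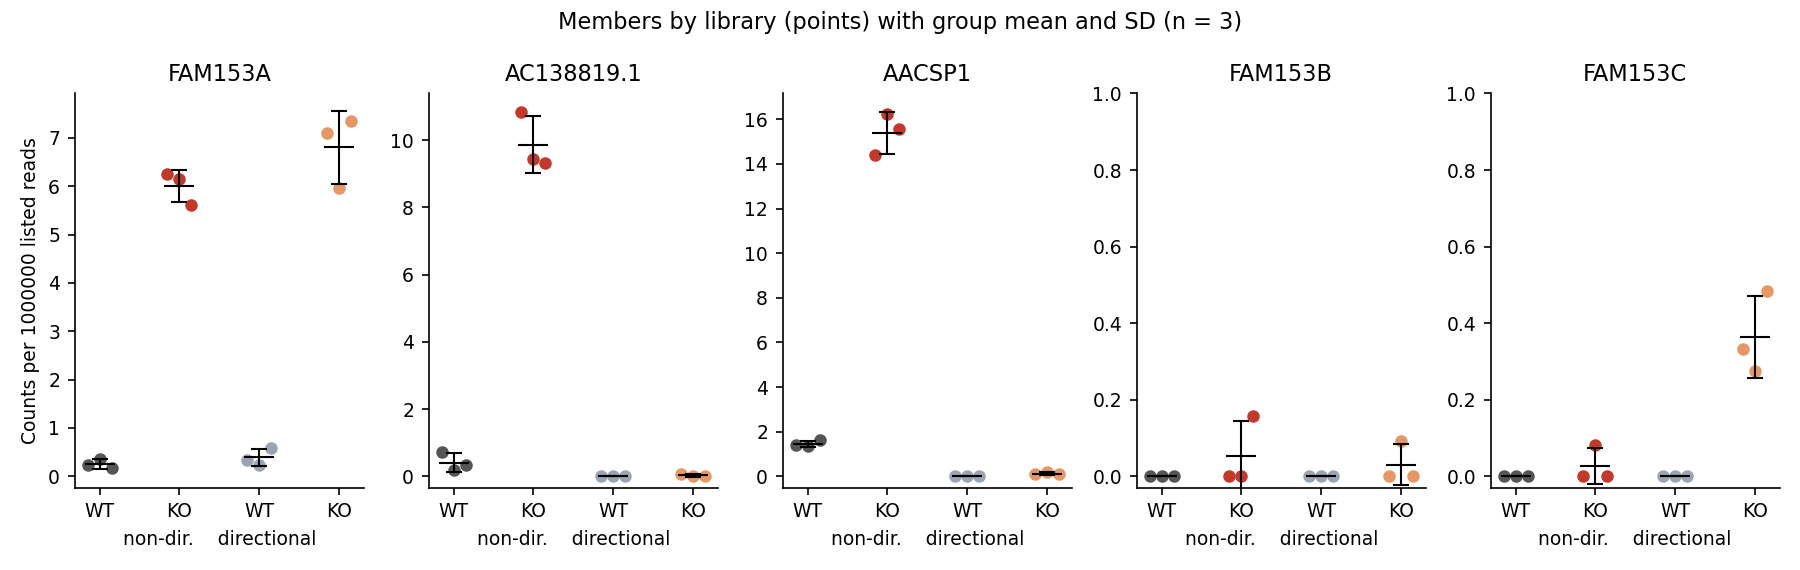
Counts of each member per 1000000 listed reads (vertical axis, a separate scale in each panel) in the 12 libraries, by genotype and kit, with points for libraries and bars for the group mean and SD (n = 3). FAM153A was raised in knockout in both kits, AC138819.1 and AACSP1 in the non-directional kit and near 0 in the directional kit, and FAM153B and FAM153C stayed below 0.5 throughout.

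The directional libraries gave a different picture of the same members. FAM153A had counts of 4, 3 and 6 in wild type and 85, 65 and 76 in knockout, again with no overlap. The means were 7.41 ± 3.51 and 129 ± 13.6 CPM (SD, n = 3), a ratio of 17.5 and a log2 fold change of 4.14 (SE 0.27), place 9 of the 4745 genes fitted. CPM of this kit are set against far smaller gene totals and are not comparable with those of the other.

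FAM153C had 0 counts in each directional wild-type library and 4, 3 and 5 in the knockout libraries. The groups did not overlap, but the knockout mean of 6.92 ± 1.99 CPM (SD, n = 3) was only at least 1.23-fold higher than the floor of 3 counts per library. AACSP1 had 0, 0 and 0 against 1, 2 and 1, AC138819.1 0, 0 and 0 against 1, 0 and 0, and FAM153B 0, 0 and 0 against 0, 1 and 0. These 3 members were at or under the floor, so no fold is given, and they could not be compared at such low counts. In the directional libraries 1 of 5 members passed the filter. For 3 members every knockout library was above every wild-type library, but FAM153C and AACSP1 among them did not pass the filter. Of the genes tested, all of which passed it, 15.2% were so, and nothing is read from that share.

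Set against listed reads, which were similar in number in both kits, the members split by kit. In knockout libraries FAM153A stood at 6.003 ± 0.338 counts per 1000000 listed reads with the non-directional kit and 6.80 ± 0.747 with the directional kit (SD, n = 3), so the directional value was 113% of the other. Among the 13778 genes fitted in the non-directional libraries the median of that percentage was 0.707, and 3.11% of genes stood at or above FAM153A. It was 0.519% over the 8278 genes with no exon on the opposite strand of another gene's exon, of which 0.411% reached 100%, and 1.42% over the 5500 genes with such an exon, of which 8.16% reached 100%.

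AC138819.1 and AACSP1 behaved like most genes by this measure. AC138819.1 went from 9.87 ± 0.847 to 0.0278 ± 0.0482 counts per 1000000 listed reads in knockout, which is 0.282%, and AACSP1 from 15.4 ± 0.940 to 0.121 ± 0.0541, which is 0.787%. FAM153C went the way of FAM153A, with 1 count in all 3 non-directional and 12 counts in all 3 directional knockout libraries. In wild type FAM153A was at 152% on 9 and 13 counts in all, while AC138819.1 and AACSP1 had 0 directional counts. The directional tables list 0 reads as not unique, so such reads were removed or listed differently there, and what that did to the FAM153A and FAM153C values of the kits was not tested.

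**Figure D3:**
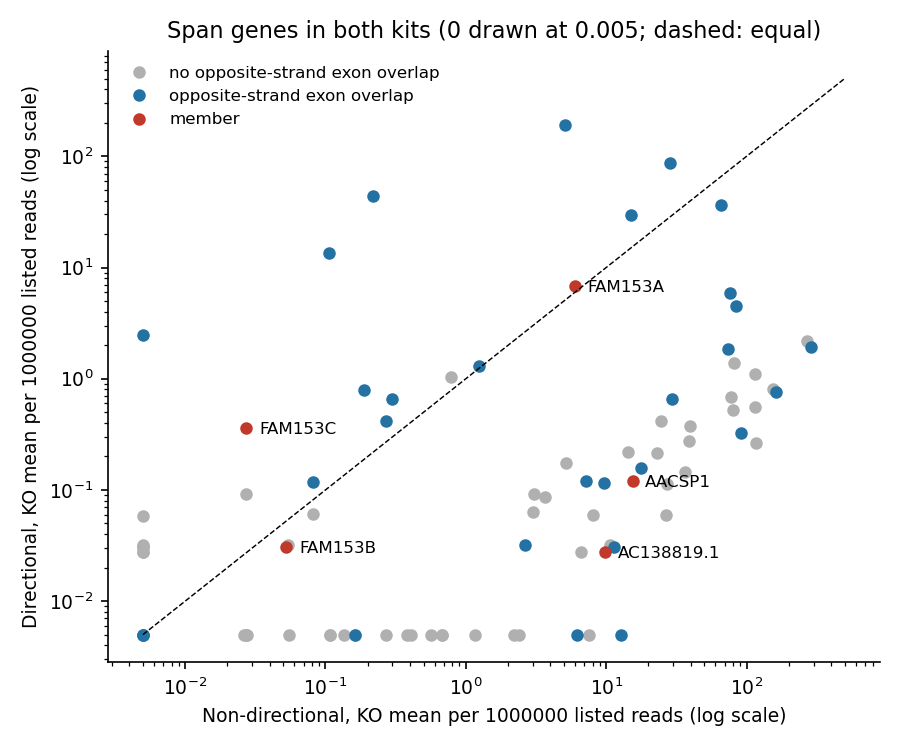
Mean counts per 1000000 listed reads in the knockout libraries of the non-directional kit (horizontal axis, log scale) and the directional kit (vertical axis, log scale) for genes of the 5q35 span with any count, with values of 0 drawn at 0.005 and equality as a dashed line. FAM153A lies beside the dashed line, among genes with an exon on the opposite strand of another gene's exon (blue), and AC138819.1 and AACSP1 lie far below it with most genes.

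Gene pairs on opposite strands in the same region differed in how the kits counted them. The 8 genes of the region with the most directional counts all had exons that overlap another gene's exons on the opposite strand. MXD3 averaged 2108 directional and 86.8 non-directional counts over the libraries, and PRELID1, which overlaps it on the other strand, 18.7 and 884. PHYKPL averaged 330 directional and 192 non-directional counts, and its partner HNRNPAB 22.0 and 3627. In NOP16, GRK6 and NHP2 the directional mean was the lower. NOP16 averaged 388 directional and 784 non-directional counts, and its partners ARL10 487 and 2.17 and HIGD2A 8 and 352. GRK6 averaged 73.8 and 960, and its partners F12 1.67 and 94.7 and PRR7-AS1 7 and 6.33. NHP2 averaged 51.8 and 996, and its partner RMND5B 981 and 383. FAM153A averaged 39.8 directional and 38.5 non-directional counts, and its partner AC138819.1 0.167 and 63.3. The strand that the authors' counting used is not given in the sources used here, and whether the reads over FAM153A came from RNA of its annotated strand or of the opposite strand was not tested.

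The genes around the members were set apart by position only, so they could be tested. The region from 500000 bases before FAM153B to 500000 bases after AACSP1 held 120 other annotated genes, of which 46 passed the filter in the non-directional libraries. Of these, 17 passed the test (37.0%, edgeR adjusted p under 0.05, where 51.5% of all genes tested did), 10 higher (25.5% of all genes) and 7 lower (25.9% of all genes) in knockout, and their median log2 fold change was 0.02 beside -0.00 over all genes tested. A change of 1 or more on the log2 scale as well was met by 4 of the 46 genes, and by 7.8% of all genes tested.

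ZNF354C, a zinc finger gene 242 kb beyond AACSP1, had the highest fold among the neighbours tested with the non-directional kit. It had 0 counts in each wild-type library and 116, 120 and 122 in the knockout libraries, or 12.04 ± 0.189 CPM (SD, n = 3), at least 35.8-fold higher than the floor of 3 counts per library (edgeR adjusted p = 9.8e-33). RGS14, a regulator of G protein signalling, rose by 1.20 on the log2 scale (SE 0.22, edgeR adjusted p = 2.2e-06), and N4BP3, which lies beyond FAM153C, rose by 1.12 (SE 0.15, edgeR adjusted p = 7.3e-10). GPRIN1 fell by 1.03 on the log2 scale (SE 0.088, edgeR adjusted p = 1.5e-17) and MXD3, a MAX-binding transcription factor, fell by 0.88 (SE 0.13, edgeR adjusted p = 3.5e-08). RNF44, ZNF346 and SIMC1 rose by 0.37, 0.33 and 0.30 on the log2 scale, and PRR7 and RMND5B fell by 0.35 and 0.31, of which PRR7 no longer passed with DESeq2 (adjusted p = 0.151). The other 7 called genes changed by at most 0.25 in size, rounded to 2 decimals. AC106795.1, an RNA gene between FAM153A and FAM153C, had counts of 152 to 176 in wild type and 155 to 161 in knockout, so its ranges overlapped.

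**Figure D4:**
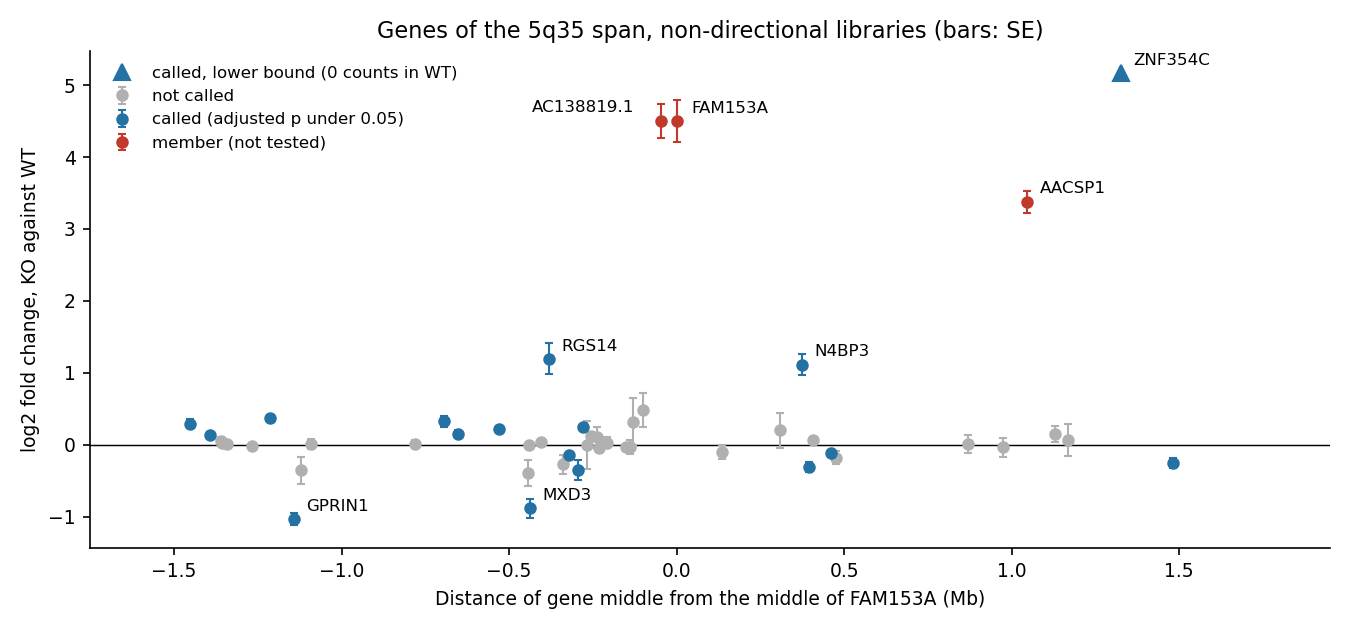
Log2 fold change of knockout against wild type in the non-directional libraries (vertical axis, bars are SE) for the members and the other genes tested in the region, by distance of the gene's middle from the middle of FAM153A (horizontal axis, Mb). AC138819.1 and FAM153A at 4.50 and AACSP1 at 3.38 stand above their neighbours, apart from ZNF354C, drawn at the log2 of its lower bound because it had 0 counts in wild type.

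In the directional libraries 17 of the 120 genes passed the filter and 2 passed the test (11.8%, beside 16.2% of all genes tested). AC104117.2, annotated inside the last exon of ZNF354C on the opposite strand, had 0 counts in wild type and 27, 25 and 29 in knockout, at least 8.26-fold higher than the floor of 3 counts per library (edgeR adjusted p = 2.0e-15). Its 0 counts in the non-directional libraries show nothing of its level, since without strand a read there falls in both genes and is not counted. ZNF354C had directional counts of 3, 0 and 3 in wild type and 3, 0 and 1 in knockout. Whether the counts of both genes come from the same RNA was not tested. The counts of CDHR2, which overlaps GPRIN1 on the opposite strand, fell by 1.04 on the log2 scale (SE 0.34, edgeR adjusted p = 0.021). CDHR2 no longer passed with DESeq2 (adjusted p = 0.217) or without wild-type replicate 1 (edgeR adjusted p = 0.215) or knockout replicate 1 (edgeR adjusted p = 0.156). Over the libraries CDHR2 averaged 13.7 directional and 2 non-directional counts, and GPRIN1 1.83 and 205. GPRIN1 fell by 1.03 in the non-directional libraries. Whether the directional counts of CDHR2 come from RNA of its annotated strand was not tested. The genotype by kit term, which tests whether the change differed between kits, was called for 3 of 52 genes (5.77%, beside 1.82% of all genes tested), MXD3, RMND5B and ZNF354C. No test of that term is given for the members, since their values in both kits had chosen them.

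A small pseudogene upstream of AACSP1, AC126915.2, was chosen after its values were seen and is given with no test. It starts 6.95 kb beyond the upstream end of AACSP1 and had counts of 0, 1 and 0 in wild type and 11, 8 and 10 in knockout non-directional libraries. The directional counts were 4, 1 and 2 against 14, 14 and 7, so the genotypes did not overlap in either kit.

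AACS, the parent of AACSP1 on chromosome 12, moved the other way. Its non-directional counts were 533, 528 and 535 in wild type and 426, 406 and 432 in knockout, and its level was 56.1 ± 3.53 and 42.5 ± 1.08 CPM (SD, n = 3). The groups did not overlap, and AACS fell by 0.41 on the log2 scale (SE 0.059, edgeR adjusted p = 9.7e-09). In knockout AACSP1 at 19.2 CPM was thus still below its parent in CPM, though per kb of exon it was at 5.67 and AACS at 2.64. The length used was that of all annotated exons together, 3380 bases for AACSP1. For AACS it was far longer than its transcript aligned above, which has 3316 bases, while that of AACSP1 has 2822. The higher value of AACSP1 therefore holds only for this measure. The directional libraries had at most 1 count of AACS each, and it was not tested there.

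Of 10 genes that make or use acetoacetate and acetoacetyl-CoA, 9 were tested in the non-directional libraries. None was called higher, 5 were called lower and 4 did not pass, beside 25.9% of all genes tested called lower and 51.5% called in either direction, and the median log2 fold change was -0.13 beside -0.00 over all genes tested. Without knockout replicate 2 the split was 1 higher and 4 lower. Besides AACS these were OXCT1, which activates acetoacetate in mitochondria (-0.18, edgeR adjusted p = 0.00042), ACAT2, a cytosolic thiolase (-0.17, edgeR adjusted p = 0.00031), BDH1, which interconverts ketone bodies (-0.17, edgeR adjusted p = 0.027), and HMGCS1, of cholesterol synthesis (-0.13, edgeR adjusted p = 0.00025). OXCT2 was at 0.74 and did not pass (edgeR adjusted p = 0.084).

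L1 elements are retrotransposons, and the non-directional libraries also had values for long L1 loci, 4 of which lie inside the members. An L1PA4 lies in FAM153B, an L1PA4 and an L1HS in FAM153A and an L1PA4 in FAM153C. The L1HS in FAM153A had 2, 4 and 6 reads in wild type and 6, 4 and 11 in knockout, and the L1PA4 in FAM153A had 0, 4 and 2 against 2, 0 and 1. These ranges overlapped. Summed over the 4 loci, libraries had 5, 10 and 8 reads in wild type and 10, 10 and 17 in knockout, or 0.821 ± 0.316 and 1.24 ± 0.376 reads per 1000000 gene counts (SD, n = 3), and the ranges overlapped here too. Summed over all 8 loci of the region, libraries had 14, 22 and 21 reads in wild type and 25, 28 and 39 in knockout, or 2.02 ± 0.576 and 3.08 ± 0.670 reads per 1000000 gene counts (SD, n = 3), and these ranges did not overlap (1.37 to 2.47 against 2.56 to 3.84), a difference that was not tested. Of these loci 1 of 8 had enough reads for a test, the L1PA2 at chr5:176276447-176282584, and it was not called (log2 fold change of 0.14 on the log2(value + 1) scale, limma adjusted p = 0.848), beside 28.4% of the 816 loci tested in all.

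**Figure D5:**
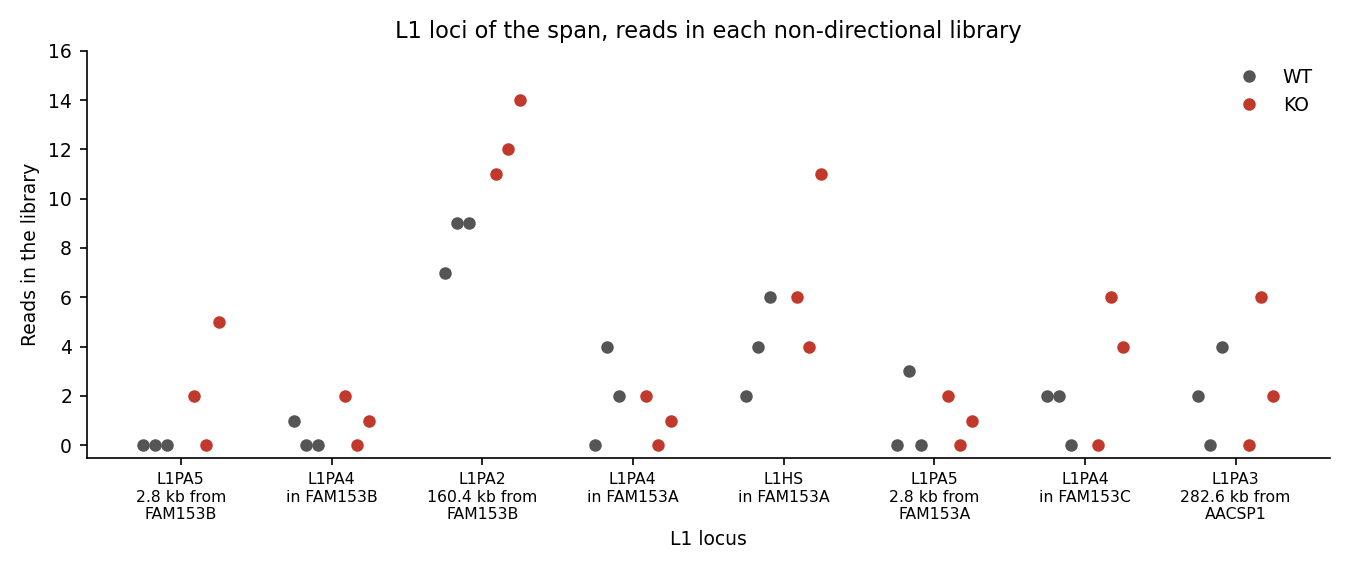
Reads of each of the 8 L1 loci of the region (horizontal axis, with the member each lies in or its distance to the nearest member) in the 3 wild-type (grey) and 3 knockout (red) non-directional libraries (vertical axis, reads per library). All loci had 14 reads or fewer, and for the 4 loci inside members wild-type and knockout values overlapped.

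RefSeq gives FAM153A 4 start sites, and the 250 bases before them held 2 to 23 CG dinucleotides, the sites of DNA methylation. The start at position 177782920 had the most, 23, beside a median of 11 over 35116 promoters, of which 74.2% had fewer and 93.9% had at least 1 (CG reads the same on both strands). It is printed as a description only, with CG in capitals. Whether the reads counted for FAM153A come from RNA of this strand was not tested, and no measurement of methylation was used here.
FAM153A, GRCh38.p14, chr5:177782921-177783170, minus strand: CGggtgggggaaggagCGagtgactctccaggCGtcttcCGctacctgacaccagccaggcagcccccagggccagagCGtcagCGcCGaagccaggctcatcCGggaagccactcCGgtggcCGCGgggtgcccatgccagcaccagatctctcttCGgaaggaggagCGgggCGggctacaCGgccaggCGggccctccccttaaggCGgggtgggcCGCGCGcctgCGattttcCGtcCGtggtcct

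Outside the 5q35 region, the 5 genes whose pattern over the 12 libraries was most like that of FAM153A lay on other chromosomes. Likeness was the Euclidean distance between log2 CPM values centred within each kit, over 3020 genes that passed the filter in both kits. TBX10, a T-box transcription factor on chromosome 11, was nearest at a distance of 1.17, with means of 0.321 and 9.41 CPM in wild-type and knockout non-directional libraries and 7.11 and 154 CPM in directional ones. PLK5, a polo-like kinase family gene, followed at 2.05, with 0.456 and 5.37 CPM and then 6.02 and 56.9 CPM. LINC02022 (2.22), the processed pseudogene AL391358.1 (2.55) and TTN, the muscle protein titin (2.62), came next.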

How the data were processed

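HAP1 wild-type and SETDB1 knockout RNA was sequenced with a non-directional or a directional kit, in 3 libraries for each genotype and kit. The authors deposited raw gene counts per library, laid out as HTSeq writes them, with lines for reads in no gene, in several genes and not uniquely aligned, which stayed out of totals and tests. They also deposited a normalized signal for 6437 L1 loci of each non-directional library, whose values were whole multiples of 1 step per library (100% within a tolerance of 0.01), so that reads were recovered. Per the submitters' processing notes, hg38, Trim Galore 0.4.4, STAR 2.6.0a, SAMtools 1.9, Picard 2.23.8, HTSeq 0.11.1, DESeq2 3.14 and bedtools were named, without roles or the strand setting.

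The members and all lists were chosen with earlier results of these data known. Gene IDs of all 58735 genes matched GENCODE 29. Each kit was fitted alone with filterByExpr (minimum count 10, minimum total 15), TMM and edgeR (4.0.16, R 4.3.3) quasi-likelihood tests, adjusted over all genes by Benjamini-Hochberg at a threshold of 0.05. The genotype by kit term came from 1 fit over all 12 libraries. L1 loci were tested with limma 3.58.1 on log2(value + 1). DESeq2 1.42.0 was an alternative. The fits were tested on simulated data. Standard errors, the fold change over the root of F, are approximate. Members were not tested. Named genes were the members, SETDB1, AACS, up to 10 called neighbours per kit by size and the 5 genes outside the region nearest FAM153A in pattern. Transcripts were aligned with blastn 2.17.0, and exon sequences were read from GENCODE 29 transcripts and the promoter from RefSeq (GRCh38.p14, 1 of 5 members matched).

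The total of gene counts limits precision: 3 counts were 0.294 to 0.336 CPM in non-directional and 4.43 to 5.64 CPM in directional libraries, and floors cover counting error only. Samples are called biological replicates in the labels, but separate cultures are not described, so p-values measure only the spread between these libraries. Same-numbered libraries did not deviate together (correlations of -0.027 to 0.014). AACS had been planned for a directional test but did not pass the filter there.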

Additional observations from a re-analysis of the deposited data

Results flagged for a closer look

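The genotype by kit term of neighbour genes marked 3 results. MXD3 had a term of 1.04 on the log2 scale (SE 0.14, edgeR adjusted p = 1.7e-11), the directional change less the non-directional. Its means were 11.6 and 6.34 CPM in wild-type and knockout non-directional libraries and 3420 and 3671 CPM in directional ones. The counts under this name were thus lower in knockout in 1 kit and not in the other. MXD3 averaged 86.8 non-directional and 2108 directional counts, and PRELID1 on the opposite strand 884 and 18.7. PRELID1 had a non-directional log2 fold change of -0.006 (edgeR adjusted p = 0.924). Whether the kits counted the same RNA as MXD3 was not tested. RMND5B had a term of 0.41 (SE 0.084, edgeR adjusted p = 0.00017). ZNF354C had a fitted term of -9.38 (SE 1.46, edgeR adjusted p = 3.8e-08), a value that depends on the prior count because ZNF354C had 0 counts in the non-directional wild-type libraries and a mean of 1.67 directional counts over the libraries. All 3 genes have an exon on the opposite strand of another gene's exon, as have 25 of the 52 genes tested for this term in the region.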

How the results depend on the processing

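No fold change of a named gene or member changed sign under the alternatives tried. The 17 neighbour genes called in the non-directional libraries (10 higher, 7 lower) were 9 higher and 12 lower in 1 fit over all 12 libraries and 10 and 10 within 1000000 bases, and became 4 where a change of 1 or more on the log2 scale was also required. The 2 directional calls (1 higher, 1 lower) were 2 higher and 0 lower with no filter, in 1 fit over all 12 libraries and without wild-type replicate 1, and became 1 within 200000 bases and 1 with DESeq2, and 1 to 4 when single libraries were left out, with 1 without knockout replicate 1 and 4 without knockout replicate 3. The 3 genotype by kit calls became 1 to 2 when single libraries were left out, with 1 without non-directional wild-type replicate 2, where 36 genes rather than 52 were tested. With a pseudocount of 0.5 CPM the log2 fold changes of AC138819.1, FAM153A and AACSP1 in the non-directional libraries were 3.66, 3.28 and 3.08, lower by the construction of a pseudocount. Leaving out single libraries gave 4.18 to 5.16 for AC138819.1, 4.29 to 4.80 for FAM153A and 3.33 to 3.45 for AACSP1, and 3.85 to 4.51 for FAM153A in the directional libraries. Among single neighbours, calls of CDHR2, KIAA1191, FGFR4, GRK6, PRR7 and HNRNPAB were lost under at least 1 alternative (5, 5, 1, 2, 7 and 1 alternatives), and the cause was not tested. Counting the non-directional knockout libraries as 1, an alternative chosen after seeing the data, ended the calls of KIAA1191, GRK6, PRR7 and HNRNPAB (edgeR adjusted p = 0.052, 0.066, 0.059 and 0.060). The replicate block, although the numbers do not pair the samples, gave 17 non-directional and 2 directional neighbour calls, 3 for the kit term and log2 fold changes of 4.51, 4.50 and 3.37 for AC138819.1, FAM153A and AACSP1, and it changed no call. Counts were too low for FAM153B in either kit, FAM153C in the non-directional, or AACSP1 and AC138819.1 in the directional libraries to be compared. In the directional libraries 5.23 to 5.30% of listed reads fell in a gene, while listed reads were similar in number between the kits. What this small share did to the low counts of these members was not tested.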
